A study of Oreochromis niloticus with 18 samples.

Results

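The transcripts described here are 200 tilapia liver transcripts whose levels were lower in every liver exposed to 3,5-diiodothyronine (T2) or 3,5,3′-triiodothyronine (T3) than in both control livers. They were chosen from 26763 transcripts in 18 RNA-seq libraries. Levels were expressed in CPM, the effective count of a transcript divided by the total of its library and multiplied by 1000000. A total of 7747 transcripts had a mean liver CPM of 5 or more and a mean liver level under 100 times the mean brain level, with 0.1 CPM added to both. These were ranked by the lowest of 2 control livers over the highest of 4 hormone livers, with 1 CPM added to both, and the 200 highest ratios were taken. Fish were juvenile Nile tilapia (Oreochromis niloticus) of 4 months. They were kept in water with 25 nM T2 for 12 h, with 25 nM T3 for 12 h or without hormone. The hormones were dissolved in NaOH and the control fish were not treated, and no strain is given in the sources used here. Liver, cerebellum and thalamus-pituitary were taken, with 2 libraries in each of 9 groups. Each brain library came from a pool of 4 fish, and by the stated numbers of fish both brain regions drew on the same animals, so libraries of the regions are not independent of each other. For liver the design gives 2 individuals a group.

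Thyroid hormones enter cells through membrane transporters and act mainly through nuclear receptors. These receptors sit on DNA with retinoid X receptors and exchange corepressors for coactivators when hormone binds. In the liver of vertebrates they are known for setting the use of lipid, cholesterol and carbohydrate, and many of their target genes fall rather than rise with hormone. T3 is the main hormone at these receptors, and T2 is a product of its deiodination that also acts on them in fish.

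Effective counts summed to between 2090615 and 6585242 in liver libraries and between 1568851 and 5793070 in brain libraries, so 1 count stood for 0.152 to 0.637 CPM. The labelled tissue held its markers. The 16 listed hepatocyte transcripts, such as fibrinogen chains and hemopexin, summed to 32012 and 34003 CPM in T2 livers, 40842 and 44329 CPM in T3 livers and 59864 and 65267 CPM in control livers, against 24.8 to 56.3 CPM in brain. Pancreatic enzyme transcripts, which in tilapia liver can come from exocrine tissue within the organ, stood apart in 1 control liver. Their sum was 24188 and 24752 CPM in T2 livers, 33700 and 30493 CPM in T3 livers and 89911 and 33790 CPM in control livers. Proliferation markers ran the other way, with 606 and 399 CPM in T2 livers, 228 and 220 CPM in T3 livers and 19.4 and 107 CPM in control livers. None of the 13 pancreatic, 16 hepatocyte or 9 proliferation transcripts was a member. The rule took only transcripts under 100 times their brain level and favoured those lower with hormone. Their absence was thus shaped by the rule and says nothing about these differences. The part of these differences in the results was not tested. In bulk liver, fewer cells of a type and less RNA per cell cannot be told apart.

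The ratio that chose the members ran from 1.41 to 6.41, with a median of 1.64. It was at least 2 for 39 members and at least 4 for 6 members. The last members taken were an unnamed transcript (ENSONIT00000020993, ratio 1.414), the endothelial adhesion molecule SELE (1.407) and the apoptosis regulator BFAR (1.406). Just outside were the scaffold protein MAGI1 (1.4046), the globin HBB (1.4044) and the coactivator EP300 (1.4041), so the limit falls within a continuous range. All 4 hormone livers lay below both control livers for 759 of the 7747 ranked transcripts (9.8%) and above both for 4046 (52.2%). The opposite order was thus the more frequent on this scale, in which each library sums to the same total. Members took 0.911% and 0.857% of all counts in T2 livers, 1.04% and 1.13% in T3 livers and 2.67% and 2.29% in control livers.

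**Figure D1:**
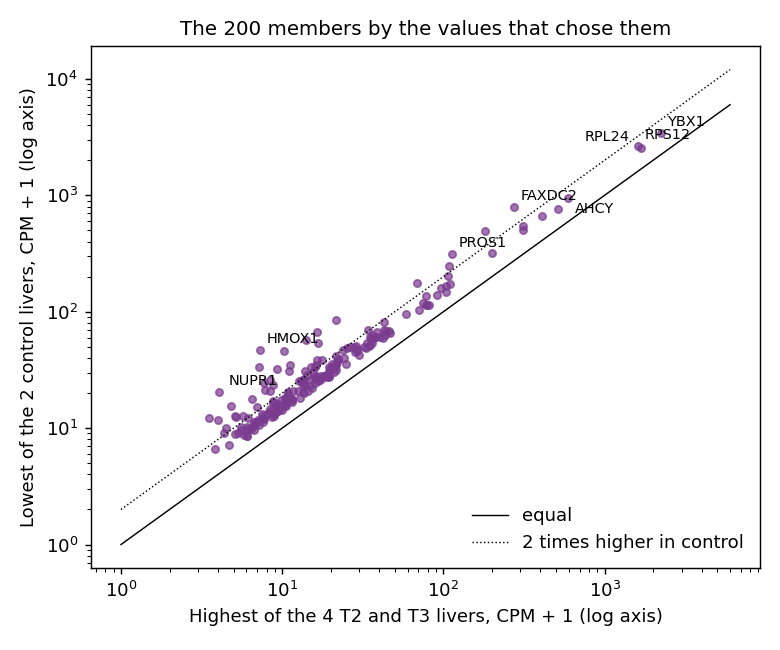
Each of the 200 members is a point, with the highest CPM + 1 among the 4 T2 and T3 livers on the horizontal log axis and the lowest CPM + 1 of the 2 control livers on the vertical log axis. All points lie above the solid line of equality because the rule placed them there, and 39 lie on or above the dotted line at which the control value is 2 times the hormone value.

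Library order within the groups was uneven. The highest hormone value came from the second T3 liver for 121 members, from the first T2 liver for 38, from the first T3 liver for 22 and from the second T2 liver for 19. The lowest control value came from the second control liver for 112 members and from the first for 88. With 1 CPM added to both, the control livers differed by more than 2-fold for 14 members. With the first control liver left out of the rule 102 of the 200 members were taken again, and with the second left out 104, so a single control library decided the place of many. Leaving out a hormone liver kept 156 to 176. The effective-count test of edgeR, used below for what the rule did not fix, called 192 of 200 members lower with T2 (8.85% of 10905 transcripts tested were lower) and 185 of 200 lower with T3 (5.05% of 11556), at an adjusted p under 0.05. In the same fits 0 members were higher, against 12.2% of transcripts with T2 and 8.55% with T3. The rule used this contrast, so these counts describe the selection. They also changed with the liver left out. A fit without 1 liver has 1 library in that group, so its spread comes from the other group alone. Such counts cannot show whether the calls rested on single livers. Scaled by library total alone, 133 were called with T2 and 93 with T3. The median log2 difference of members was -2.26 with T2 and -1.85 with T3 under TMM scaling. On CPM, with 1 CPM added, their median log2 ratio of mean control over mean hormone livers was 1.33. Member medians by hormone under library totals are not given. The median over all transcripts was 0.01 with T2 and -0.02 with T3 under TMM scaling, and 0.61 with T2 and 0.54 with T3 when scaled by the library total alone.

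Names come from the gene lists in the study's supplement, which pair 1658 transcripts with symbols and hold mostly transcripts that the study itself grouped as regulated. A symbol was found for 169 members and none for 31. Counts and medians by gene list are therefore not independent evidence of direction. As the share to set beside each list's count of members, 169 of the 1658 named transcripts were members. Counts of listed transcripts with every hormone liver below both controls stand beside 9.8% of the ranked transcripts. Those with every hormone liver above stand beside 52.2%. These shares were not counted among the named transcripts, so nothing is read from the counts of order by list. The lists were chosen with earlier results of these data known, so the size of a group is not a result about the members. The direction of a liver median is fixed in part by the members the list holds and by how the names arose, and it is given as a description only, while functions are those known for the gene in mammals unless stated. All 4 hormone livers lay below both controls for every member, so values are given for their size. Medians by list are under TMM scaling, while levels and counts of order are on CPM. Values under a symbol are those of the member transcript only. The symbols PDK4, JUNB, NFKBIA, BHMT and GZMA, among others, also name transcripts that are not members.

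The 10 highest-ranked members and the next with a symbol included genes known from stress, chromatin and fasting. Heme oxygenase HMOX1, which opens the heme ring and is induced by oxidative stress, was at 4.10 and 6.23 CPM in T2 livers, 3.99 and 6.27 CPM in T3 livers and 45.6 and 331 CPM in control livers. Its controls were 7.26-fold apart, and the hormone livers lay close together. NUPR1, a small stress-induced transcriptional regulator, was at 3.03 and 1.94 CPM in T2 livers, 1.93 and 1.33 CPM in T3 livers and 20.95 and 19.3 CPM in control livers. Acid phosphatase ACP7 was at 2.80 and 5.21 CPM in T2 livers, 3.13 and 6.19 CPM in T3 livers and 32.8 and 37.6 CPM in control livers. H1F0, the linker histone of quiescent cells, was at 2.82 and 3.33 CPM in T2 livers, 3.52 and 9.21 CPM in T3 livers and 44.5 and 79.5 CPM in control livers. In H1F0 the second T3 liver was the highest of the hormone livers, as in most members. RCBTB1, a protein with RCC1 repeats and a BTB domain, was at 6.16 and 3.72 CPM in T2 livers, 6.12 and 15.4 CPM in T3 livers and 65.7 and 83.02 CPM in control livers. CCPG1, a receptor for the autophagy of endoplasmic reticulum, was at 9.08 and 7.98 CPM in T2 livers, 6.04 and 13.1 CPM in T3 livers and 57.2 and 55.7 CPM in control livers, and its controls were the closest pair among these. The transcript ENSONIT00000015997, which has no symbol, was at 2.39 and 2.73 CPM in T2 livers, 6.04 and 8.29 CPM in T3 livers and 47.5 and 31.3 CPM in control livers. In it both T2 livers lay below both T3 livers. SLC25A48, a mitochondrial carrier, was at 1.11 and 2.001 CPM in T2 livers, 0.932 and 2.51 CPM in T3 livers and 11.2 and 25.5 CPM in control livers. The elongation factor of RNA polymerase II ELL was at 3.81 and 3.47 CPM in T2 livers, 0.858 and 2.97 CPM in T3 livers and 16.7 and 14.4 CPM in control livers.

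**Figure D2:**
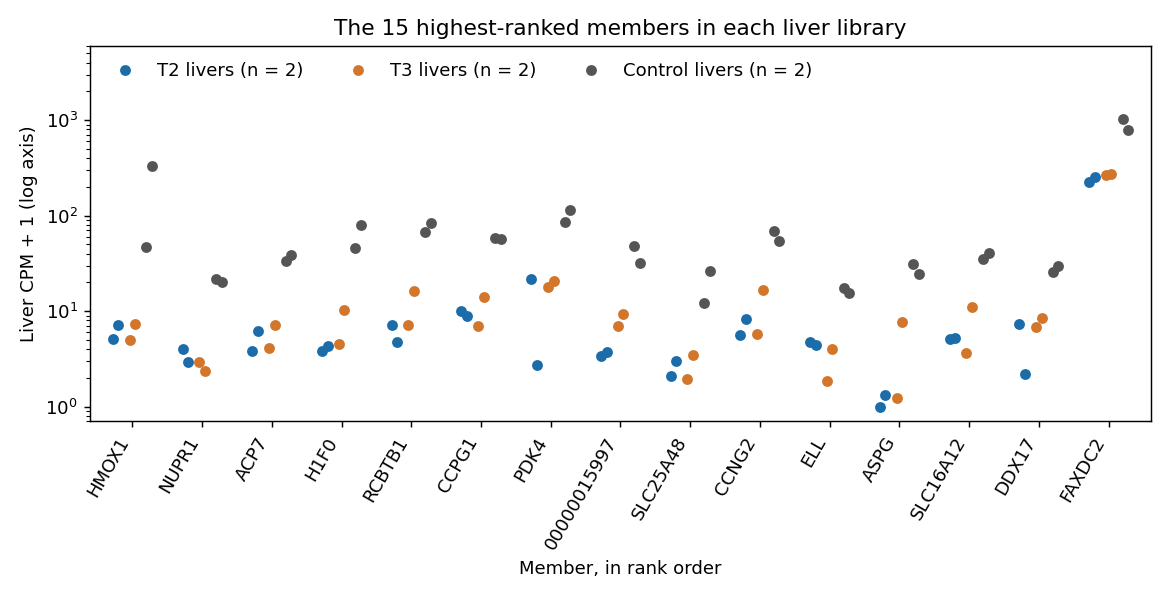
The 15 highest-ranked members are placed in rank order on the horizontal axis, and points show CPM + 1 (log axis) in each of 2 T2, 2 T3 and 2 control livers. Control points lie above all hormone points for each, with HMOX1 at 45.6 and 331 CPM in controls and FAXDC2 at 1024 and 798 CPM.

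Among 12 listed transcripts of the integrated stress and DNA damage response, 4 were members: HMOX1, NUPR1, GADD45G and DDIT3. GADD45G, a stress sensor in growth arrest, was at 2.34 and 2.97 CPM in T2 livers, 8.81 and 11.8 CPM in T3 livers and 24.2 and 32.5 CPM in control livers. DDIT3, also known as CHOP and induced when the endoplasmic reticulum is under load, was at 21.7 and 21.9 CPM in T2 livers, 19.5 and 22.7 CPM in T3 livers and 54.01 and 45.7 CPM in control livers. The DDIT3 hormone livers lay within 3.27 CPM of each other. In all, 8 of the 12 had every hormone liver below both controls and 1 had every hormone liver above. Immediate early genes gave 2 members of 17, GADD45G and the AP-1 subunit JUNB, which was at 8.05 and 12.7 CPM in T2 livers, 4.77 and 9.47 CPM in T3 livers and 25.5 and 44.5 CPM in control livers.

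Genes of fasting, FOXO and insulin signalling gave 8 members of 29 listed. PDK4, the kinase that shuts pyruvate dehydrogenase and is raised in fasting, was at 20.5 and 1.72 CPM in T2 livers, 17.1 and 19.9 CPM in T3 livers and 84.3 and 114 CPM in control livers. The T2 livers were 11.9-fold apart in PDK4, wider than the spread between the controls. CCNG2, an unconventional cyclin and FOXO target, was at 4.65 and 7.20 CPM in T2 livers, 4.70 and 15.7 CPM in T3 livers and 68.9 and 52.9 CPM in control livers. PNPLA2, adipose triglyceride lipase, which starts the breakdown of stored fat, was at 2.11 and 1.08 CPM in T2 livers, 2.55 and 9.79 CPM in T3 livers and 19.6 and 30.8 CPM in control livers. In CCNG2 and PNPLA2 the second T3 liver was the highest of the hormone livers. Insulin receptor substrate IRS2 was at 6.04 and 4.75 CPM in T2 livers, 5.27 and 11.6 CPM in T3 livers and 26.8 and 19.9 CPM in control livers. The insulin receptor itself, INSR, was at 33.6 and 26.8 CPM in T2 livers, 26.9 and 36.8 CPM in T3 livers and 59.1 and 59.04 CPM in control livers, with both controls alike. The Krüppel-like factor KLF11, the arrestin-domain protein ARRDC2 and the translation repressor EIF4EBP3, which binds eIF4E, were the others. On CPM, 21 of the 29 listed transcripts had all hormone livers below both controls and 0 had all above. Of the listed transcripts that were not members, 20 could be tested. At an adjusted p under 0.05, edgeR called 14 of them lower with T2, 6 lower with T3 and 0 higher with either. Over all transcripts tested, 8.85% were lower and 12.2% higher with T2, and 5.05% were lower and 8.55% higher with T3. The share among all named transcripts, which are mostly ones the study grouped as regulated, was not counted. The list median was -2.35 with T2 and -1.56 with T3, beside 0.01 and -0.02 over all transcripts.

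Fatty acid oxidation and PPAR targets gave 9 members of 19. PNPLA7, a lysophospholipase, was at 2.89 and 3.33 CPM in T2 livers, 2.27 and 3.45 CPM in T3 livers and 17.9 and 8.95 CPM in control livers. ACOT4, a peroxisomal acyl-CoA thioesterase, was at 2.43 and 1.69 CPM in T2 livers, 4.09 and 6.01 CPM in T3 livers and 14.5 and 14.3 CPM in control livers. The nuclear receptor PPARD was at 9.64 and 8.65 CPM in T2 livers, 9.17 and 14.5 CPM in T3 livers and 29.6 and 37.5 CPM in control livers. In PPARD the second T3 liver was the highest of the hormone livers. CROT, the peroxisomal carnitine octanoyltransferase, was at 14.3 and 19.96 CPM in T2 livers, 18.6 and 41.7 CPM in T3 livers and 79.8 and 124 CPM in control livers. Peroxisomal protease LONP2 and the adiponectin receptor ADIPOR2 were also members, so that ACOT4, CROT and LONP2 all encode peroxisomal proteins. Over the list, 13 of 19 had all hormone livers below both controls and 1 had all above, and the median log2 difference was -2.51 with T2 and -2.04 with T3.

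Autophagy and lysosome genes gave 8 members of 26. Beside CCPG1, FAM134A, another receptor for autophagy of the endoplasmic reticulum, was at 6.81 and 8.85 CPM in T2 livers, 7.76 and 8.64 CPM in T3 livers and 16.4 and 17.3 CPM in control livers. BNIP3, a mitophagy receptor, was at 28.99 and 55.9 CPM in T2 livers, 55.4 and 76.6 CPM in T3 livers and 134 and 263 CPM in control livers. The kinase ULK1, which starts autophagosome formation, was at 5.88 and 3.51 CPM in T2 livers, 3.56 and 5.39 CPM in T3 livers and 11.5 and 10.2 CPM in control livers. BNIP3L, the ubiquitin ligase PARK2, the lipid transfer protein ATG2A and the receptor TAX1BP1 were members further down. Of the 8, 5 are receptors that select cargo (CCPG1, FAM134A, BNIP3, BNIP3L and TAX1BP1). The list also holds cargo receptors that were not members, among them NBR1, OPTN and CALCOCO1. The share of receptors in the whole list was not counted, so nothing is read from their number. All hormone livers were below both controls for 19 of the 26 and above for 0, with list medians of -1.74 with T2 and -1.51 with T3. BNIP3 was also 1 of 2 members among 8 hypoxia genes, with the clock and hypoxia repressor BHLHE40, at 22.6 and 22.99 CPM in T2 livers, 26.8 and 26.9 CPM in T3 livers and 48.4 and 60.6 CPM in control livers. BHLHE40 was the only member among 6 clock genes.

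Amino acid and one-carbon metabolism gave 6 members of 32. ASPG, an asparaginase, was at 0 and 0.336 CPM in T2 livers, 0.218 and 6.74 CPM in T3 livers and 30.2 and 23.4 CPM in control livers. It was at or near 0 in 3 hormone livers, and only the second T3 liver held several CPM. The amino acid transporter SLC43A2 was at 4.53 and 3.90 CPM in T2 livers, 3.97 and 10.02 CPM in T3 livers and 39.1 and 30.2 CPM in control livers. SAT1, which acetylates polyamines for export, was at 34.3 and 19.7 CPM in T2 livers, 27.8 and 34.1 CPM in T3 livers and 111 and 59.98 CPM in control livers. AHCY, which cleaves S-adenosylhomocysteine after methyl transfer, was at 589.8 and 552 CPM in T2 livers, 467 and 518 CPM in T3 livers and 942 and 1318 CPM in control livers. BHMT, which remethylates homocysteine with betaine, and the mitochondrial serine hydroxymethyltransferase SHMT2 were members too. BHMT was at 511 and 249 CPM in T2 livers, 293 and 413 CPM in T3 livers and 1015 and 758 CPM in control livers, so its T2 livers were 2.05-fold apart. Of the 32 listed, 24 had every hormone liver below both controls and 0 had every one above, and the list medians were -1.89 with T2 and -1.72 with T3.

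Ribosomal proteins gave 5 members of 27. Of the 27, 24 had all hormone livers below both controls and 1 had all above. These 27 are only those named in the study's lists, so the count does not show the order of ribosomal proteins at large. RPL38 was at 14.6 and 25.5 CPM in T2 livers, 21.8 and 16.1 CPM in T3 livers and 94.5 and 48.3 CPM in control livers. RPS29 was at 6.17 and 19.3 CPM in T2 livers, 9.32 and 7.92 CPM in T3 livers and 61.8 and 34.3 CPM in control livers. RPL29 was at 6.70 and 14.4 CPM in T2 livers, 8.35 and 8.26 CPM in T3 livers and 35.2 and 25.4 CPM in control livers. In each of these the first control liver was the higher. RPL24 was at 1479.6 and 1628 CPM in T2 livers, 1638 and 1678 CPM in T3 livers and 3958 and 2540.0 CPM in control livers. RPS12 was at 66.2 and 126 CPM in T2 livers, 1612 and 1588 CPM in T3 livers and 3362 and 2634 CPM in control livers, and is described with the comparison of the hormones. Short coding sequences such as these can share reads with processed copies, and whether this affected their levels was not examined. YBX1, a cold-shock domain protein that binds mRNA, was at 2231 and 1984 CPM in T2 livers, 1748 and 1754 CPM in T3 livers and 4574 and 3434 CPM in control livers.

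Signalling by NF-kB and cytokines gave 4 members of 17. NFKB2 was at 12.05 and 9.13 CPM in T2 livers, 11.1 and 16.7 CPM in T3 livers and 64.99 and 37.3 CPM in control livers. Its inhibitor NFKBIA was at 15.7 and 10.4 CPM in T2 livers, 13.5 and 4.61 CPM in T3 livers and 59.95 and 24.6 CPM in control livers, and the regulatory kinase subunit IKBKG was at 22.2 and 16.9 CPM in T2 livers, 20.1 and 23.9 CPM in T3 livers and 47.3 and 34.5 CPM in control livers. The decoy receptor IL13RA2 was at 12.2 and 12.03 CPM in T2 livers, 9.73 and 18.4 CPM in T3 livers and 76.03 and 32.2 CPM in control livers. In all 4 the first control liver was the higher, as in 112 of the 200 members. Over the list, 10 of 17 had all hormone livers below both controls and 0 had all above.

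Some markers of other cells were members, and the order of the listed transcripts is given with them. To set beside their counts, 169 of the 1658 named transcripts were members. All hormone livers were below both controls for 11 of 13 red cell, 10 of 17 leukocyte and 2 of 2 thrombocyte transcripts. The same held for 13 of 16 hepatocyte, 6 of 13 pancreatic, 3 of 9 connective tissue and 1 of 8 neuron and glia transcripts. In these lists 1 red cell transcript had all hormone livers above both controls. Over the ranked transcripts the shares were 9.8% below and 52.2% above, and those among named transcripts were not counted. Endothelium gave 3 of 5 listed, SELE, STAB2 and APLNR. STAB2, the scavenger receptor of liver sinusoids, was at 1.97 and 1.81 CPM in T2 livers, 5.82 and 3.61 CPM in T3 livers and 12.4 and 9.54 CPM in control livers. The apelin receptor APLNR was at 3.69 and 5.60 CPM in T2 livers, 3.81 and 6.57 CPM in T3 livers and 27.3 and 11.7 CPM in control livers. SELE was at 3.43 and 3.95 CPM in T2 livers, 3.79 and 5.05 CPM in T3 livers and 11.2 and 7.51 CPM in control livers. The 5 endothelial transcripts together were at 25.4 and 22.1 CPM in T2 livers, 34.0 and 35.7 CPM in T3 livers and 75.4 and 61.9 CPM in control livers, with all 5 below both controls in each hormone liver. Red cell transcripts gave 3 of 13, none of them a globin. They were the membrane scaffold MPP1 (41.99 and 32.1 CPM with T2, 20.1 and 42.6 CPM with T3 and 62.7 and 66.4 CPM in controls), the mitochondrial glycine carrier SLC25A38 (6.75 and 2.42 CPM with T2, 3.47 and 7.50 CPM with T3 and 47.01 and 13.1 CPM in controls) and BNIP3L (12.02 and 11.3 CPM with T2, 18.004 and 17.01 CPM with T3 and 36.4 and 26.6 CPM in controls). Their list summed to 4221 and 4079 CPM in T2 livers, 3116 and 4284 CPM in T3 livers and 5342 and 8177 CPM in control livers. Leukocytes gave 1 of 17, the granzyme GZMA, at 2.44 and 0 CPM in T2 livers, 4.25 and 8.46 CPM in T3 livers and 12.9 and 17.6 CPM in control livers, and the list summed to 3200 and 3683 CPM in T2 livers, 6954 and 4116 CPM in T3 livers and 7180 and 6814 CPM in control livers. Connective tissue gave 1 of 9, the actin-binding CALD1, at 5.61 and 7.17 CPM in T2 livers, 6.72 and 7.60 CPM in T3 livers and 18.2 and 11.4 CPM in control livers. Thrombocytes and neurons gave none. The neuronal marker GAP43 was at 0 in all livers, the only 1 of 8 neuron and glia transcripts to be so. That list summed to 117 and 171 CPM in T2 livers, 124 and 190 CPM in T3 livers and 161 and 361 CPM in control livers. Whether these cells had a part in the result was not tested.

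Enzymes and carriers of hormones, vitamins and sterols were also present. CYP26A1, which clears retinoic acid, was at 2.46 and 0.978 CPM in T2 livers, 3.50 and 6.80 CPM in T3 livers and 44.1 and 20.4 CPM in control livers. CYP24A1, which inactivates vitamin D, was at 7.62 and 7.24 CPM in T2 livers, 21.3 and 33.2 CPM in T3 livers and 188 and 68.99 CPM in control livers, and its controls were 2.73-fold apart. Among cholesterol genes 3 of 15 were members: CYP46A1, which hydroxylates cholesterol, at 9.54 and 6.52 CPM in T2 livers, 9.31 and 7.67 CPM in T3 livers and 15.95 and 21.04 CPM in control livers, the exporter ABCA1 at 16.3 and 28.2 CPM in T2 livers, 24.3 and 26.2 CPM in T3 livers and 57.6 and 46.9 CPM in control livers, and the oxysterol-binding protein OSBP at 18.4 and 15.7 CPM in T2 livers, 17.4 and 10.3 CPM in T3 livers and 28.6 and 29.6 CPM in control livers. This list ran both ways, with 8 of 15 below and 5 of 15 above both controls in all hormone livers. The prefixes SLC and SLCO marked 10 members as solute carriers, among them the organic ion carrier SLC22A14, at 63.03 and 56.2 CPM in T2 livers, 53.9 and 67.4 CPM in T3 livers and 177 and 187 CPM in control livers, the ascorbate carrier SLC23A1, at 55.1 and 37.7 CPM in T2 livers, 35.4 and 57.5 CPM in T3 livers and 121 and 94.7 CPM in control livers, and the urate carrier SLC2A9, at 46.3 and 28.8 CPM in T2 livers, 61.6 and 76.9 CPM in T3 livers and 114 and 163 CPM in control livers. Secreted proteins included PROS1, an anticoagulant, at 80.4 and 80.9 CPM in T2 livers, 112 and 112 CPM in T3 livers and 344 and 311 CPM in control livers, and apolipoprotein APOF, at 176 and 144 CPM in T2 livers, 149 and 179 CPM in T3 livers and 739 and 492 CPM in control livers. FAXDC2, of the fatty acid hydroxylase family, was at 227 and 252 CPM in T2 livers, 264 and 271 CPM in T3 livers and 1024 and 798 CPM in control livers. In FAXDC2 the libraries of each group differed by 1.28-fold or less.

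No member was among 6 named transcripts of thyroid hormone signalling or 5 of the growth hormone axis. Every hormone liver was nevertheless below both controls for 4 of the 5 and for 2 of the 6, and above both for 0 in each list. The growth hormone axis summed to 7.62 and 9.76 CPM in T2 livers, 17.1 and 31.3 CPM in T3 livers and 240 and 76.4 CPM in control livers. The receptor partner RXRB was at 25.8 and 19.2 CPM in T2 livers, 17.9 and 26.8 CPM in T3 livers and 35.1 and 36.8 CPM in control livers. The corepressor NCOR1 was at 20.5 and 17.4 CPM in T2 livers, 42.2 and 25.3 CPM in T3 livers and 28.2 and 56.97 CPM in control livers, with overlap through the first T3 liver. The coactivator EP300, just outside the limit, was at 6.51 and 7.78 CPM in T2 livers, 6.46 and 9.57 CPM in T3 livers and 13.8 and 15.04 CPM in control livers. The acetyltransferase KAT2B was at 5.28 and 1.36 CPM in T2 livers, 2.15 and 2.16 CPM in T3 livers and 4.89 and 7.69 CPM in control livers, and the first T2 liver overlapped the controls. CRYM, which binds thyroid hormone in the cytosol, was at 17.6 and 2.45 CPM in T2 livers, 1.30 and 3.52 CPM in T3 livers and 13.96 and 9.47 CPM in control livers. In CRYM the first T2 liver was above both controls. In edgeR's test RXRB, EP300 and NCOR1 were lower with T2 (log2 differences -1.31 to -1.80, adjusted p 0.0260 to 0.0279). With T3, KAT2B, RXRB, EP300 and CRYM were lower (-1.25 to -2.79, adjusted p 0.0313 to 0.0422, edgeR). Over all transcripts tested, 8.85% were lower with T2 and 5.05% with T3. The calls of these genes under other settings were not examined. The rule ranked on this contrast and the names come mostly from transcripts the study grouped as regulated. These p-values are therefore a description only. The log2 differences are under TMM scaling and the levels in CPM are not, so their sizes are not alike.

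Levels in T2 and T3 livers were then set against each other. The rule did not use which hormone a liver had, but it ranked on the highest of these same 4 livers, so the values are a description. Of the 200 members, 154 had a lower mean with T2. Both T2 livers lay below both T3 livers for 66 members (33%), against 17.5% of the ranked transcripts, and above for 10 members (5%), against 28.3%. Among the 559 other ranked transcripts with all hormone livers below both controls, both T2 livers lay below both T3 livers for 35.2% and above for 8.77%. The order of the hormones was thus shared with other lowered transcripts. The median log2 difference, T2 over T3, was -0.28 for 198 members tested and -0.01 over all transcripts. No single member passed an adjusted p of 0.05 in edgeR's quasi-likelihood test (0.0874% of 11437 transcripts did, 0.0262% higher and 0.0612% lower). At an unadjusted p under 0.05, 31 members were lower with T2 and 0 higher, against 5.32% and 5.79% of all transcripts. DESeq2 called 4 members (0.905% of all transcripts), edgeR's exact test 7 (2.69%) and the fit with the controls included 1 (0.158%), all lower with T2. The second T3 liver was the highest of the hormone livers for most members, as given above, and its part in this difference was not tested.

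The members with the smallest p between T2 and T3 livers were RPS12 and unnamed transcripts. RPS12, at 66.2 and 126 CPM in T2 livers, against 1612 and 1588 CPM in T3 livers, differed by -4.09 ± 0.40 (log2, SE; adjusted p 0.0702, edgeR). ENSONIT00000017583 was at 12.4 and 19.6 CPM in T2 livers, 88.4 and 106 CPM in T3 livers and 275 and 203 CPM in control livers, a difference of -2.65 ± 0.30 (adjusted p 0.0973, edgeR). ENSONIT00000012498 was at 3.08 and 2.48 CPM in T2 livers, 11.4 and 14.9 CPM in T3 livers and 27.1 and 39.4 CPM in control livers, a difference of -2.32 ± 0.30 (adjusted p 0.152, edgeR). None passed the threshold. CYP24A1, GADD45G and ADAMTS13 followed in the order of p, each with both T2 livers below both T3 livers. ADAMTS13, which cuts von Willebrand factor, was at 12.2 and 13.7 CPM in T2 livers, 27.1 and 37.9 CPM in T3 livers and 65.8 and 73.2 CPM in control livers. RPS12 was also uneven in brain. It was at 493 and 389.7 CPM with T2, 34.7 and 44.8 CPM with T3 and 23.2 and 425 CPM in controls in cerebellum, and at 407 and 334 CPM with T2, 37.4 and 36.8 CPM with T3 and 49.6 and 399 CPM in controls in thalamus-pituitary, so that the first control library of each region was with the T3 libraries and the second with the T2 libraries.

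**Figure D3:**
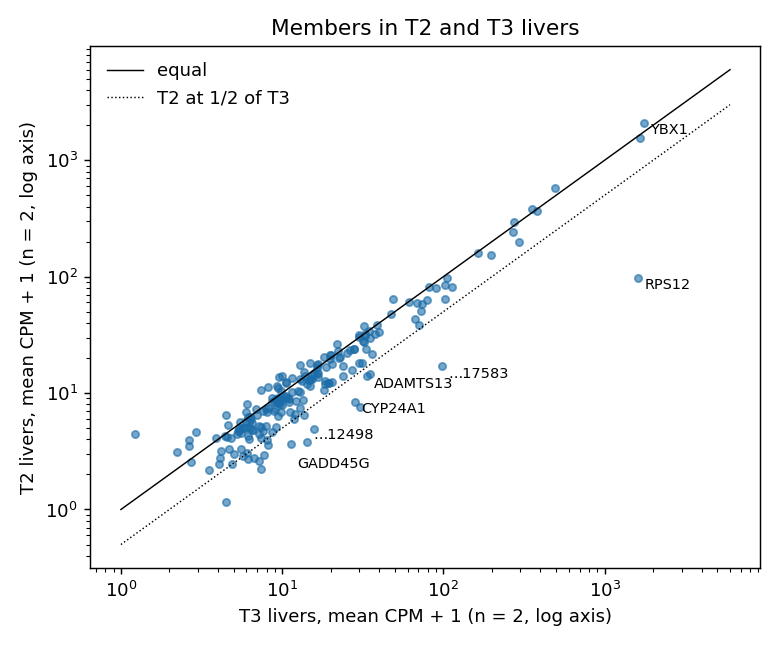
Members are points with mean CPM + 1 of 2 T3 livers on the horizontal log axis and of 2 T2 livers on the vertical log axis. Most lie near or under the solid line of equality, and RPS12, ENSONIT00000017583 and ENSONIT00000012498 lie far under the dotted line at which T2 + 1 is 0.5 times T3 + 1.

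In the brain the same transcripts were mostly well expressed. The mean over 12 brain libraries was 5 CPM or more for 159 members and under 1 CPM for 17. It was above the mean of the control livers for 83 members. The ratio of liver to brain was 10 or more for 29 members (14.5%), against 5.67% of the ranked transcripts, and its median was 1.03 for members and 0.618 for the ranked. Members in which brain exceeded liver most included the polycomb protein CBX7, the growth factor PTN and the transcript ENSONIT00000016742. CBX7 was at 387 and 319.6 CPM with T2, 323 and 342 CPM with T3 and 267 and 233 CPM in controls in cerebellum, and at 0.868 and 1.53 CPM in T2 livers, 2.23 and 2.83 CPM in T3 livers and 17.1 and 5.66 CPM in control livers. Members took 1.42% and 1.29% of counts with T2, 1.16% and 1.20% with T3 and 1.24% and 1.41% in controls in cerebellum. In thalamus-pituitary they took 1.24% and 1.20% with T2, 1.13% and 1.12% with T3 and 1.18% and 1.28% in controls. Both T3 libraries lay below both controls in each region, and the T2 libraries overlapped the controls.

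Between the brain regions, 99 of 182 members tested differed at an adjusted p under 0.05 in edgeR's test, 58 higher and 41 lower in cerebellum (48.8% of 18230 transcripts were called, 23.1% higher and 25.7% lower). PTPRU, a receptor phosphatase, averaged 11.9 ± 3.33 CPM in cerebellum and 121 ± 12.7 CPM in thalamus-pituitary (SD, n = 6 each, all treatments, with the regions from the same fish), a log2 difference of -3.24 ± 0.14 (SE, adjusted p 1.041e-09, edgeR). No library of 1 region overlapped the other in PTPRU. ENSONIT00000006981 was higher in cerebellum by 3.50 ± 0.12 and ENSONIT00000006295 lower by a log2 difference of -2.88 ± 0.09. ELL, PTPN3 and BHLHE40 were higher in cerebellum (1.44, 1.66 and 1.03 log2), and CSMD3, DAB1 and JUNB were lower (-1.60, -1.18 and -2.31 log2).

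**Figure D4:**
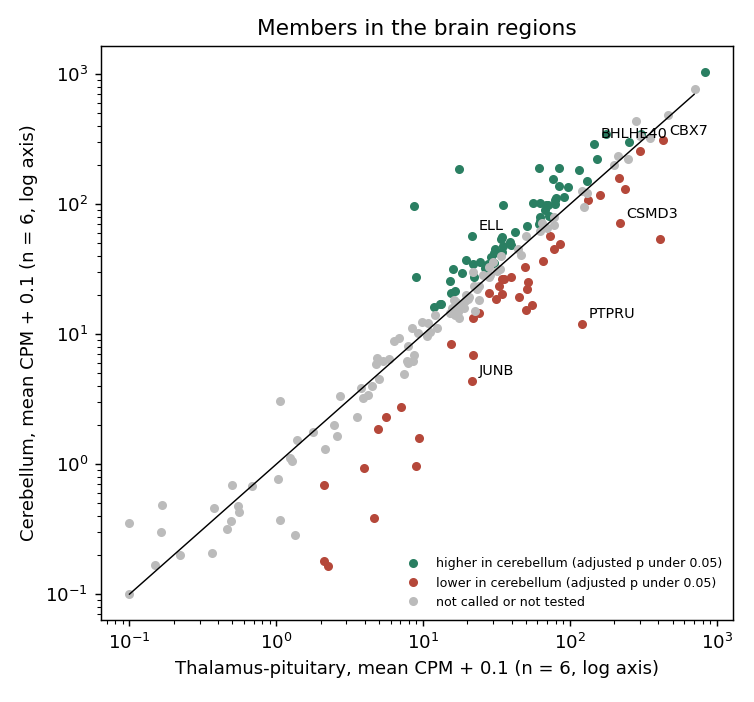
Each member is a point with mean CPM + 0.1 of 6 thalamus-pituitary libraries on the horizontal log axis and of 6 cerebellum libraries on the vertical log axis. Green and red points are the 58 members higher and the 41 lower in cerebellum at an adjusted p under 0.05, and grey points were not called or not tested.

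The response of the members to hormone in brain was tested in samples whose response the rule did not use. No member passed an adjusted p of 0.05 in edgeR's test in any of the 4 comparisons of 1 hormone with control in 1 region. These tested 167 members with T2 and 168 with T3 in cerebellum (0% of all transcripts called in each), and 178 with T2 (0%) and 177 with T3 (0.00588%) in thalamus-pituitary. At an unadjusted p under 0.05, T3 gave 26 members lower and 3 higher in cerebellum (15.5% lower, against 5.75% of all transcripts) and 15 lower and 6 higher in thalamus-pituitary (8.47% lower, against 4.71%, and 8.84% of all in either direction, with 4.14% higher). T2 gave 3 lower and 3 higher in cerebellum (1.8% lower, against 2.74%, and 4.96% of all in either direction, with 2.22% higher) and 10 lower and 4 higher in thalamus-pituitary (5.62% lower, against 2.96%, with 3.2% of all higher). DESeq2 called 2 members in cerebellum (0.39% of all transcripts) and 4 in thalamus-pituitary (0.257%) with T3, all lower, and 0 with T2 in cerebellum (0.0757%) and thalamus-pituitary (0.0943%). With edgeR's exact test T3 gave 7 in cerebellum (1.17%) and 2 in thalamus-pituitary (0.747%), and T2 gave 1 in cerebellum (0.308%) and 0 in thalamus-pituitary (0.429%). The median log2 difference of members was -0.03 and -0.14 with T2 and T3 in cerebellum, and -0.06 and -0.12 in thalamus-pituitary.

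With both regions and both hormones in 1 fit, 0 of 182 members were called (0.554% of 18230 transcripts were). At an unadjusted p under 0.05, 32 members were lower (17.6%, against 7.31%) and 9 higher (4.95%, against 6.37%), and DESeq2 called 14 (1.99% of all transcripts), 11 lower and 3 higher. The fit took the 12 libraries as independent although the regions share fish, so its p-values may be too small. The median was -0.10 for members and -0.01 over all transcripts. CCPG1 came closest, at 48.9 and 37.5 CPM with T2, 23.5 and 30.3 CPM with T3 and 47.2 and 54.4 CPM in controls in cerebellum. In thalamus-pituitary CCPG1 was at 40.9 and 41.4 CPM with T2, 38.4 and 39.6 CPM with T3 and 50.6 and 66.8 CPM in controls. The hormone libraries lay below both controls in thalamus-pituitary and overlapped them in cerebellum, and the joint difference was -0.59 ± 0.12 (log2, SE; adjusted p 0.0502, edgeR, 0.00256 to 0.169 over 17 alternatives). PNPLA2 lay on the other side of its controls from liver, at 20.3 and 17.1 CPM with T2, 15.7 and 16.7 CPM with T3 and 12.3 and 12.6 CPM in controls in cerebellum and 19.5 and 21.9 CPM with T2, 19.2 and 29.7 CPM with T3 and 11.4 and 11.97 CPM in controls in thalamus-pituitary. All hormone libraries of PNPLA2 were above both controls in both regions, and the joint difference was 0.68 ± 0.16 (adjusted p 0.0774, edgeR). ENSONIT00000023469 did the same, at 122 and 130.4 CPM with T2, 135 and 109 CPM with T3 and 74.2 and 76.6 CPM in controls in cerebellum and 86.9 and 73.9 CPM with T2, 103 and 76.7 CPM with T3 and 67.8 and 63.2 CPM in controls in thalamus-pituitary, a difference of 0.52 ± 0.11 (adjusted p 0.0627, edgeR).

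**Figure D5:**
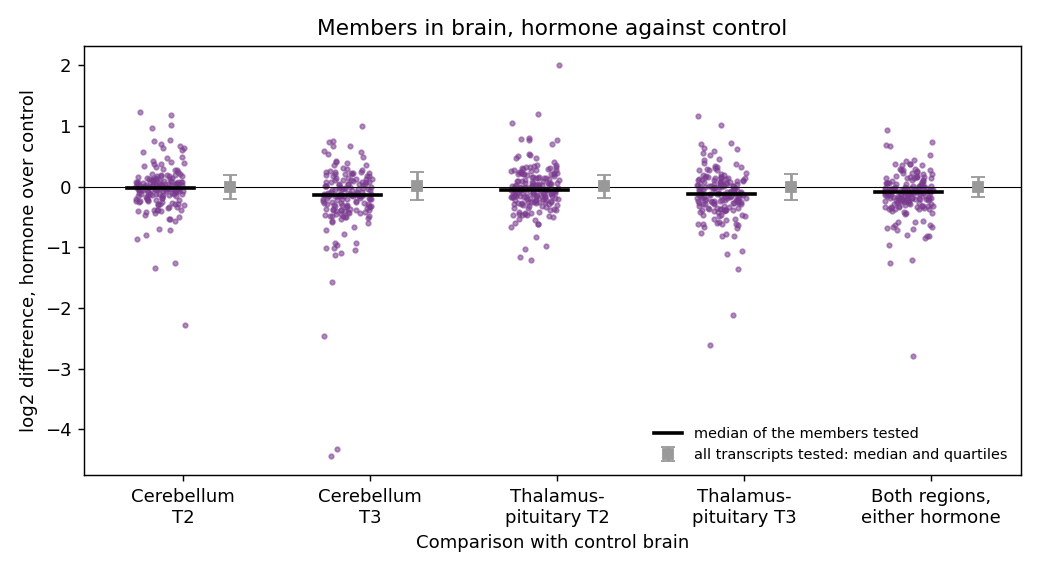
Purple points are log2 differences of the members tested, hormone over control, in each brain comparison. Black bars mark their medians, -0.03, -0.14, -0.06, -0.12 and -0.10 from left to right, and grey squares with bars the median and quartiles of all transcripts tested, which centre near 0.

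Counted without a model, all 4 hormone libraries lay below both controls for 26 members in cerebellum (13%, against 7.46% of the ranked transcripts) and for 27 in thalamus-pituitary (13.5%, against 7.13%). They lay above for 7 (3.5%, against 12.4%) and 14 (7%, against 16.1%). The 5 members below in both regions (2.5%, against 1.81% of the ranked transcripts) were NIPSNAP3A, PNPLA7, CROT, AHCY and KIDINS220, a share near that of the ranked transcripts. KIDINS220, a scaffold of neurotrophin receptors, was at 47.01 and 36.8 CPM with T2, 32.9 and 44.8 CPM with T3 and 50.3 and 57.1 CPM in controls in cerebellum. In single comparisons the members with the smallest p included H1F0, at 223 and 167 CPM with T2, 119 and 119 CPM with T3 and 219 and 292 CPM in controls in cerebellum, with a T3 difference of -1.12 ± 0.15 (log2, SE; adjusted p 0.328, edgeR). The actin-binding DBN1 was at 240.5 and 245 CPM with T2, 198 and 172 CPM with T3 and 267 and 298 CPM in controls in thalamus-pituitary, with a T3 difference of -0.64 ± 0.13 (adjusted p 0.432, edgeR). OSBP was at 8.49 and 7.35 CPM with T2, 2.56 and 3.95 CPM with T3 and 12.6 and 15.1 CPM in controls in thalamus-pituitary, a T3 difference of -2.12 ± 0.37 (adjusted p 0.380, edgeR). With T2 the smallest p after that of ENSONIT00000023469 belonged to CBX7 in cerebellum, at a log2 difference of 0.49, and in thalamus-pituitary to KIDINS220, PNPLA2 and ARRDC2 (-0.50, 0.79 and 0.78 log2). None of these passed the threshold. The difference between regions in the hormone response was called for 0 of 182 members (0% of 18230), with 9 at an unadjusted p under 0.05 (4.95%, against 4.08% of all transcripts) and 0 by DESeq2 (0.0122%). Smallest in p there were ENSONIT00000008842 (-0.64 log2), OSBP (1.75 log2) and SLC25A48 (-3.18 log2). Marker sums also differed in brain. Red cell transcripts, of which 3 are members, summed to between 3962 and 4807 CPM in hormone cerebella, against 8015 and 6655 CPM in control cerebella, and to between 3451 and 4446 CPM in hormone thalamus-pituitary, against 7984 and 4881 CPM in controls. Neuron and glia transcripts summed to 5055 and 4184 CPM with T2, 3433 and 3525 CPM with T3 and 4518 and 5509 CPM in controls in cerebellum. Proliferation transcripts summed to between 275 and 350.5 CPM in hormone cerebella, against 585 and 653 CPM in control cerebella, and to between 91.2 and 100.5 CPM in hormone thalamus-pituitary, against 148 and 145 CPM in controls. The part of these sums in the brain differences was not tested.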

How the data were processed

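RNA-seq libraries were made from total RNA of liver, cerebellum and thalamus-pituitary. Reads were mapped by the authors with Bowtie 1.1.2 to coding sequences of Orenil1.0 and quantified with eXpress. The deposited values were expected counts (effective counts) per transcript, not normalised between libraries, and were rounded for tests. CPM used file totals. The authors' edgeR tables of fold changes and p-values were not used. R 4.3.3 with edgeR 4.0.16 (filterByExpr, smallest count 10 and smallest total 15, TMM, quasi-likelihood test, Benjamini-Hochberg, adjusted p under 0.05) and DESeq2 1.42.0 were used. Pairwise fits held the 4 libraries compared, and brain fits all 12 with region or treatment as a term. Replicate brain libraries came from separate pools and, by the design text, a liver group held 2 fish. The brain regions drew on the same fish. The members, lists and tests were chosen with earlier results of these data known. Named genes were the 10 highest-ranked members (and the 10 with a symbol), up to 4 per list, the smallest p-values of each test, the members at the limit and thyroid hormone signalling genes. Further members are examples chosen after their values were seen. None of the transcripts the rule leaves out ranked among the 200. Coordinates and sequences were not used here. The individual values of a few genes are not reported here, though counts include them.

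Simulated libraries with 200 transcripts changed by 2 log2 units gave 84% recovered and 13% of calls false in the cerebellum T3 design. The T2 against T3 liver design gave 80.5% and 12%. Either hormone against control over both brain regions gave 91.5% and 7.58%, and the interaction of region and hormone gave 65% and 6.47%. The comparison of the brain regions gave 93.5% and 4.59%. In all of these but the comparison of regions, the share of false calls was above the threshold. Each design had a single simulated set, so this cannot show that the expected share exceeds the threshold. The changed transcripts were drawn only from those above a limit on mean count. Recovery of lower transcripts or of smaller changes was therefore not measured. The interaction recovered the smallest share. Liver hormone against control was not simulated. Alternatives were RLE factors, library totals alone, no low-count filter, DESeq2, edgeR's exact test, all 6 libraries of a tissue, a replicate block and leaving out each library.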

Additional observations from a re-analysis of the deposited data

Results flagged for a closer look

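Members that ran against their liver order in the brain were listed. All 4 hormone livers were below both control livers by the rule, and all 4 hormone libraries were above both controls for 7 members in cerebellum (3.5%, against 12.4% of the ranked transcripts) and for 14 in thalamus-pituitary (7%, against 16.1%). The difference between tissues was not tested. PNPLA2 and ENSONIT00000023469 did so in both regions, 1% of the members against 4.17% of the ranked transcripts, so this order was rarer among the members. For PNPLA2 the lowest hormone library was 1.25 times the highest control in cerebellum and 1.6 times in thalamus-pituitary, and for ENSONIT00000023469 1.43 and 1.09 times.

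In 7 members reported here both T2 libraries were below both T3 libraries in liver and above them in both brain regions, again with no test of the difference. The share of all ranked transcripts with this order was not counted. Whether it was more frequent among the members is therefore not known. The T2 mean over the T3 mean in cerebellum and in thalamus-pituitary was 11.1 and 9.99 for RPS12, 2.87 and 1.38 for ENSONIT00000017583, 1.18 and 1.05 for FAM43A, 1.14 and 1.09 for RERE, 1.11 and 1.08 for ATG2A, 1.07 and 1.09 for KAT6B, and 1.04 and 1.12 for CCNI. In the cerebellum ENSONIT00000017583 was at 41.9 and 427 CPM with T3 and 43.7 and 762 CPM in controls, so the libraries of each of these groups were far apart.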

How the results depend on the processing

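Counts of members called depended on the setting. In liver, library totals alone called 93 members with T3, and leaving out each library gave 75 to 173 with T2 and 17 to 179 with T3. The T2 against T3 count of 0 became 2 with library totals alone, 4 with DESeq2, 7 with the exact test and 1 with all 6 livers, and 0 to 3 without single livers. In cerebellum T2 gave 1 without the low-count filter and 1 with the exact test, and T3 gave 7, 2 and 7 without the filter, with DESeq2 and with the exact test. In thalamus-pituitary T3 gave 4 with DESeq2 and 2 with the exact test. The count for either hormone in brain became 1 with RLE factors, 1 with library totals, 2 without the filter and 14 with DESeq2. Leaving out each library gave 0 to 2 for T2 and 0 to 1 for T3 in cerebellum, 0 to 1 for each hormone in thalamus-pituitary, 0 to 3 for either hormone, 0 for the interaction and 89 to 98 between regions. Of the 200 members, 119 were kept when means replaced extremes, 93 at a mean liver CPM of 20 or more, and 102 to 176 without single livers. Over 31 named results none reversed its direction. Only the named differences between the brain regions were called in the main fit, and none of these lost its call. The other named results had no call to lose, and 35 alternatives brought one of them past the threshold. The causes were not tested.

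No source says that a replicate number marks a shared pool, batch or day, and same-numbered libraries correlated in their deviations with r between -0.21 and 0.234. Between the brain regions, which drew on the same fish, r was 0.082 with T2, 0.027 with T3 and 0.234 in controls, so the numbers were not taken as pairs. With the number as a block, 2 members were called between T2 and T3 livers, 177 with T2 and 131 with T3 in liver and 101 between regions. A crossed pairing for cerebellum T2, chosen after seeing the data, called 0. With 2 libraries a group and 1 count worth up to 0.637 CPM, small differences of low transcripts were not detectable.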
